A study of Mus musculus with 6 samples.

Results

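The 10 genes described here encode 4 cytokines of the interleukin-6 (IL-6) family (Il6, Lif, Osm and Il11), the 3 colony-stimulating factors (Csf1, Csf2 and Csf3), and 3 proteins that pass on or limit the signal of the IL-6 family (Il6st, Stat3 and Socs3). They were taken by gene symbol from the 21899 mouse genes listed in the series, and each symbol named 1 row. Expression was measured by RNA sequencing in tumors that grew under the skin of adult male C57BL/6 mice from LLC-luc cells, a luciferase-labelled form of the mouse line Lewis lung carcinoma (LLC). The Laser group was irradiated and, by the methods, received saline. Before the laser, PC-La mice were given phycocyanin (PC), a pigment protein used as a photosensitizer, and SePC-La mice its selenium-enriched form (SePC). All 3 groups were thus irradiated, and no unirradiated or untreated tumor is among the 6 samples, 2 in each group. The labels give a laser of 620 nm for 10 min, 4 h after injections repeated every 5 days; the methods give another wavelength and another interval. An age beyond adult was not given in the sources used here, nor whether a sample was 1 tumor or a pool, so p-values measure the spread between these samples.

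Cytokines of the IL-6 family bind a receptor of their own and then share Il6st, the signal-transducing receptor chain of the family. JAK kinases bound to that chain phosphorylate STAT3, which enters the nucleus and switches on target genes, among them Socs3, a feedback inhibitor that binds the receptor and its kinases. The colony-stimulating factors steer myeloid cells: Csf1 keeps macrophages alive, Csf2 acts on granulocytes and macrophages, and Csf3 drives the production and release of neutrophils. Tumor cells, fibroblasts, endothelial cells and the myeloid cells themselves can all make some of these proteins.

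The unit of the table is FPKM, reads on a gene scaled to its exon length and to the reads on all genes of the sample, as judged from its values. The reads recovered from them came to between 14447793 and 17649489 per sample. The 2 Laser samples were unlike each other. Laser replicate 2 was the lowest of all 6 samples for 9 of the 10 genes, every one but Il6st, while it was the lowest for 18.7% of the 10853 genes tested. The same sample had a higher summed FPKM of skeletal muscle markers than Laser replicate 1, as given with the marker lists. Its sums of fibroblast, neutrophil and erythroid markers were lower. Abundant genes weigh most in such sums, as S100a9 did among neutrophil markers, at 104 and 14.1 FPKM in Laser replicates 1 and 2. The neutrophil markers Mmp8, Retnlg, Ngp and Camp and the fibroblast marker Pdgfrb were higher in Laser replicate 2. SePC-La replicate 2 was the highest sample for 6 of the 10 genes, against 13.5% of the genes tested. Every comparison with Laser rests on both Laser samples. Values without each of them are given for the 9 genes tested and for the pathway genes named below as called against Laser. No such values are given for the marker genes, so how far their calls rest on a single Laser sample is not shown. Markers of the tumor label were also read. Krt8 and Krt18, keratins of LLC-type carcinoma, and Vim were abundant in every sample, with a summed FPKM of the 6-gene list between 1127 and 1446. Vim made up most of that sum, at 742 to 1000 FPKM, so the sum cannot tell carcinoma cells from other cells that express Vim. The 6 markers of normal lung epithelium summed to at most 1.74 FPKM, with Scgb1a1 at 0 in all samples.

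Promoter sequences are shown for the 5 genes whose windows held a match to a motif of a factor that acts in this pathway and whose levels the results turn on. Of the 10 genes, 8 had a sequence in the RefSeq-derived table of GRCm38.p6. Osm and Csf3 had none. The windows were the 250 bases before each annotated start, cut back where they ran into an annotated exon. The motifs were searched on both strands: TTCNNNGAA for STAT factors, the NF-kB motif whose 2 matches are in the Il6 and Csf1 sequences, TGANTCA for AP-1, TTGCNNAA for C/EBP and TGACGTCA for CRE-binding factors. Of the 32851 promoter windows of the table, taken at their whole length of 250 bases, 7.02% held the STAT motif, 0.356% the NF-kB motif, 6.75% the AP-1 motif, 9.56% the C/EBP motif and 1.55% the CRE motif. Matches are in capitals in the sequences, which run 5′ to 3′ on the strand of the gene, and no 2 matches overlapped.
Il6 (chr5:30012864-30013113, plus strand): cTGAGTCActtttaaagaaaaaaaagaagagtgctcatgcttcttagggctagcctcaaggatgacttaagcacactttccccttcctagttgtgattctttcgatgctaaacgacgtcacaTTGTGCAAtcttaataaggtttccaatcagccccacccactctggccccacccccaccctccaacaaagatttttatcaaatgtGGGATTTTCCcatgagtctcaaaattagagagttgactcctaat
Csf1 (chr3:107760470-107760719, minus strand): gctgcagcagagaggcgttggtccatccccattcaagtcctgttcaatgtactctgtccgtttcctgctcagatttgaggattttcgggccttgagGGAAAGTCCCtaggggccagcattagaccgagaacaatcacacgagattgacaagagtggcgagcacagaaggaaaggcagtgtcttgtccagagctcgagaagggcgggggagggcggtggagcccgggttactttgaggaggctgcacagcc
Il11 (chr7:4778142-4778391, minus strand): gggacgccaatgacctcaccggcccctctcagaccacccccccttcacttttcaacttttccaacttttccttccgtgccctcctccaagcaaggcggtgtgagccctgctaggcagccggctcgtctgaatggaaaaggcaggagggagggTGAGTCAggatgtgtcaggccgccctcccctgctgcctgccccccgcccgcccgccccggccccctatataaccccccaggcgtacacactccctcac
Lif (chr11:4257318-4257556, plus strand): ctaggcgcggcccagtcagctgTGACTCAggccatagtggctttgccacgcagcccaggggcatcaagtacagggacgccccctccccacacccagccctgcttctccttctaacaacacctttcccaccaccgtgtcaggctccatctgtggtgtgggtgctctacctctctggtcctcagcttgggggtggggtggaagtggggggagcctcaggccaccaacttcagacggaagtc
Socs3 (chr11:117969452-117969616, minus strand): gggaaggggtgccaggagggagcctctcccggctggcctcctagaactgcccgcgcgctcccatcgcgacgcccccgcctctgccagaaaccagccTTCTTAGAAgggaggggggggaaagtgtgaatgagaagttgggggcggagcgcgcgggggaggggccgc

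The Il6 window held 3 matches, an NF-kB match that begins at position -44 from the start, a C/EBP match at -128 and an AP-1 match at -249. Csf1 held an NF-kB match at -154. Il11 has 2 annotated starts, and the window shown, of the start nearer to its 3′ end, held an AP-1 match at -98, while the other held none. Lif held an AP-1 match at -228, and Socs3 the STAT match of these windows, at -154. The Socs3 window was cut to positions -250 to -86 of its start. It lies inside the gene as annotated in GENCODE, from 117966079 to 117970047, and not upstream of it. The Csf2 window held a C/EBP match at -145, and those of Il6st and Stat3 held none of the 5 motifs. A match is a description of the letters and not evidence that the factor binds there.

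Levels of the 10 genes spanned a wide range per unit of length. By mean FPKM over the 6 samples the order was Socs3 (66.7), Csf1 (52.9), Stat3 (21.5), Il6st (16.8), Csf3 (8.18), Osm (6.81), Lif (5.97), Il11 (2.19), Il6 (1.08) and Csf2 (0.209). The ranges over samples of all neighbours in this order overlapped except those of Csf1 and Stat3. Within each of the 6 samples, however, Socs3 was above Csf1, Lif above Il11, Il11 above Il6 and Il6 above Csf2. The order of the other overlapping neighbours changed between samples. The signalling genes and Csf1 rested on at least 1883 reads in each sample. Il6 rested on 12 to 76 reads and Csf2 on 0 to 6, so that their values carry a large counting error. A test was run where the mean reached 1 FPKM, which left 9 of the 10, all but Csf2.

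**Figure D1:**
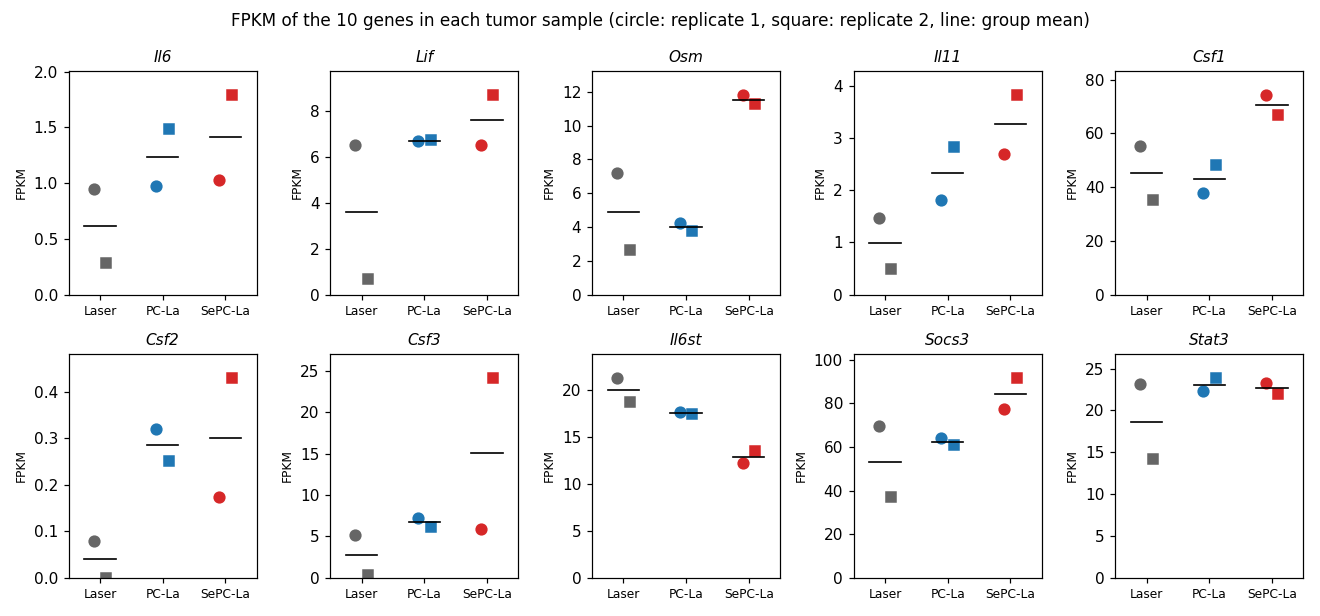
FPKM of the 10 genes (vertical axes, linear from 0, each panel with its own scale) in the Laser, PC-La and SePC-La samples; circles are replicate 1, squares replicate 2 and lines group means. Osm and Csf1 were higher in both SePC-La samples than in the other 4, Il6st was lower, and Laser replicate 2 was the lowest sample for 9 of the 10 genes.

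Of the IL-6 family cytokines, Osm (ENSMUSG00000058755, chromosome 11 from 4236420 to 4241026 of GRCm38, plus strand) encodes oncostatin M, made mainly by neutrophils, macrophages and activated T cells. Its FPKM was 7.20 and 2.62 with Laser, 4.22 and 3.76 with PC-La, and 11.8 and 11.2 with SePC-La, from 105 to 446 reads. Both SePC-La samples were above the other 4, and PC-La lay between the 2 Laser samples. Il11 (ENSMUSG00000004371, chromosome 7 from 4772373 to 4782859, minus strand) encodes interleukin-11, which stromal and epithelial cells make. It had 1.47 and 0.490 FPKM with Laser, 1.81 and 2.83 with PC-La, and 2.69 and 3.83 with SePC-La, from 18 to 139 reads. Both photosensitizer groups were above both Laser samples and overlapped each other.

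Lif (ENSMUSG00000034394, chromosome 11 from 4257557 to 4272514, plus strand) encodes leukemia inhibitory factor, which acts through a receptor made of Lifr and Il6st. Its FPKM was 6.52 and 0.690 with Laser, 6.68 and 6.71 with PC-La, and 6.52 and 8.70 with SePC-La. Laser replicate 2, with 53 reads, was far below the rest, and the other 5 samples lay close together. Il6 itself (ENSMUSG00000025746, chromosome 5 from 30013114 to 30019981, plus strand), the cytokine that names the family and a driver of the acute-phase response, stood at 0.943 and 0.280 FPKM with Laser, 0.975 and 1.49 with PC-La, and 1.03 and 1.79 with SePC-La. Its groups were ordered in the same way as those of Il11, but Laser replicate 1 and the lower sample of each photosensitizer group differed by only 1 read at most, at 36 to 37 reads.

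Of the colony-stimulating factors, Csf1 (ENSMUSG00000014599, chromosome 3 from 107741048 to 107760469, minus strand) was by far the most abundant. Its FPKM was 55.2 and 35.3 with Laser, 37.8 and 48.3 with PC-La, and 74.4 and 66.8 with SePC-La. As with Osm, both SePC-La samples were above the other 4, and PC-La lay within the range of Laser. Csf3 (ENSMUSG00000038067, chromosome 11 from 98701263 to 98703629, plus strand), which encodes the granulocyte factor G-CSF, had 5.22 and 0.361 FPKM with Laser, 7.29 and 6.10 with PC-La, and 5.93 and 24.2 with SePC-La. Its range over the 6 samples, 4.21 on the log2(FPKM + 1) scale, was the widest of the 10 genes: Laser replicate 2 had 9 reads and SePC-La replicate 2 had 596, while the other 4 samples lay between 5.22 and 7.29 FPKM. Csf2 (ENSMUSG00000018916, chromosome 11 from 54247271 to 54249667, minus strand), which encodes GM-CSF, had 1 and 0 reads in Laser, 4 and 3 with PC-La, and 2 and 6 with SePC-La. The 0 in Laser replicate 2 allows up to 3 reads, or 0.212 FPKM, by counting error alone, so that no difference was detectable at this depth. An antisense gene, Gm12223, overlaps Csf2 in the annotation, and the reads of a gene and its antisense partner cannot be told apart where counting ignores strand, which is not given in the sources used here.

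Of the signalling genes, Il6st (ENSMUSG00000021756, chromosome 13 from 112464070 to 112510086, plus strand) was ordered the other way. Its FPKM was 21.2 and 18.7 with Laser, 17.7 and 17.5 with PC-La, and 12.2 and 13.5 with SePC-La. The 3 groups did not overlap, with Laser highest and SePC-La lowest. Socs3 (ENSMUSG00000053113, chromosome 11 from 117966079 to 117970047, minus strand) had 69.5 and 36.9 FPKM with Laser, 64.2 and 60.8 with PC-La, and 77.4 and 91.7 with SePC-La, so that SePC-La was above the other 4 samples. Stat3 (ENSMUSG00000004040, chromosome 11 from 100885098 to 100939540, minus strand) had 23.1 and 14.2 FPKM with Laser, 22.3 and 23.9 with PC-La, and 23.3 and 22.0 with SePC-La. Laser replicate 2 was low, and the other 5 samples differed little. Stat3 overlaps the neighbouring gene Stat5a in the annotation.

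Differences between groups were tested with limma on log2(FPKM + 1) over all 10853 genes, a scale that understates the changes of low genes. A gene met the criterion, taken from the methods, when its absolute log2 fold change was over 1 and its unadjusted p under 0.05. No gene in the table had a Benjamini-Hochberg adjusted p under 0.05 in any comparison, by limma or by limma's voom method on the recovered reads. At an unadjusted p under 0.05 limma gave 627 genes for PC-La against Laser, 1318 for SePC-La against Laser and 2637 for SePC-La against PC-La, and voom gave 633, 1428 and 2563. Both comparisons with Laser use the same 2 Laser samples and are not independent.

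SePC-La against Laser asks what selenium-enriched phycocyanin with light did beyond light alone. Osm and Il11 were higher and met the criterion. The log2 fold change of Osm was 1.20 (standard error 0.36, limma adjusted p = 0.376), with group means of 4.91 ± 3.24 FPKM with Laser and 11.5 ± 0.408 with SePC-La (SD, n = 2 each), a ratio of 2.35. That of Il11 was 1.14 (standard error 0.30, limma adjusted p = 0.376), with means of 0.979 ± 0.691 and 3.26 ± 0.80 FPKM (SD, n = 2 each), a ratio of 3.33. Both calls depended on single samples: without Laser replicate 2 the log2 fold change of Osm was 0.61 and that of Il11 0.77, without Laser replicate 1 they were 1.79 and 1.5, and without SePC-La replicate 2 they were 1.24 (limma unadjusted p = 0.0586) and 0.95 (limma unadjusted p = 0.0585). Osm missed the criterion as well without SePC-La replicate 1, at 1.17 (limma unadjusted p = 0.0698).

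Il6st was lower in SePC-La than in Laser and had the smallest p of the 10 genes. Its log2 fold change was -0.60 (standard error 0.13, limma unadjusted p = 0.00275, adjusted p = 0.376), from 20.0 ± 1.82 to 12.8 ± 0.921 FPKM (SD, n = 2 each), a ratio of 0.644. Leaving out any 1 of the 6 samples kept it between -0.69, without Laser replicate 2, and -0.51, without Laser replicate 1. Csf1 was higher by 0.66 on the log2 scale (standard error 0.23, limma unadjusted p = 0.0274, adjusted p = 0.385) and Socs3 by 0.72 (standard error 0.29, limma unadjusted p = 0.0459, adjusted p = 0.407). Csf1 was at 0.35 and Socs3 at 0.27 without Laser replicate 2, and they were 0.98 and 1.17 without Laser replicate 1. None of these 3 reached a change over 1 with all samples. Csf1 also lost an unadjusted p under 0.05 without either SePC-La sample, and Socs3 lost it without the filter, with only the 4 samples compared and without any single sample other than Laser replicate 1.

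Csf3 had the largest fold change, 2.18 on the log2 scale, and also the largest standard error, 0.93 (limma adjusted p = 0.429). Leaving out Laser replicate 2 gave 1.09 and leaving out Laser replicate 1 gave 3.28, and the 95% interval of the difference ran from -0.22 to 4.58. For Lif the fold change of 1.26 (standard error 0.68, limma adjusted p = 0.497) became 0.18 without Laser replicate 2 and 2.34 without Laser replicate 1. Il6 was at 0.59 (standard error 0.29, limma adjusted p = 0.452) and became 0.29 without Laser replicate 2 and 0.89 without Laser replicate 1. With voom on the recovered reads, which uses no pseudocount of 1 FPKM, Il6 was at 1.44, Lif at 1.91 and Il11 at 1.95. Stat3 was at 0.31 (95% interval -0.22 to 0.84) and turned to -0.03 without Laser replicate 2, while it was 0.64 without Laser replicate 1.

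In counts, 2 of the 9 tested genes met the criterion in SePC-La against Laser, both higher, where 0.544% of all tested genes met it as higher and 0.138% as lower. At an unadjusted p under 0.05, 4 of the 9 were higher and 1 lower, against 4.9% and 7.24% of all tested genes. Both SePC-La samples were above both Laser samples for 7 of the 9 and below for 1, where 15.0% and 25.6% of all tested genes had such non-overlapping groups. The median log2 fold change of the 9 was 0.72, and that of all tested genes was -0.06.

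**Figure D2:**
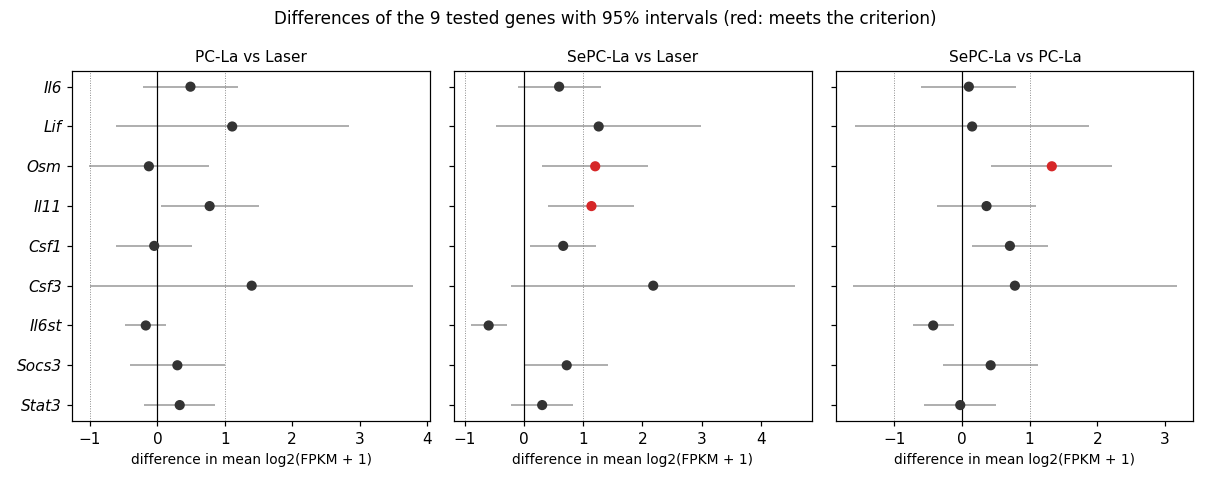
Differences in mean log2(FPKM + 1) of the 9 tested genes (horizontal axes) in the 3 comparisons, with 95% intervals from limma; red points meet the criterion and dotted lines mark a change of 1. Osm met it against both other groups, Il11 against Laser, and Il6st had negative values throughout.

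SePC-La against PC-La compares the 2 photosensitizers, and it does not use the Laser samples except for the shared estimate of spread. The study also reports less chromium, manganese and zinc in the selenium-enriched form, and smaller tumors with it. Effects of these cannot be told apart here from an effect of selenium. Osm was the gene of the 10 that met the criterion, higher by 1.33 on the log2 scale (standard error 0.36, limma adjusted p = 0.137) and means of 3.99 ± 0.325 FPKM with PC-La and 11.5 ± 0.408 with SePC-La (SD, n = 2 each), a ratio of 2.89. The value lay between 1.26 and 1.39 with each sample left out, and the p was over 0.05 without PC-La replicate 2 (limma unadjusted p = 0.0543) and without SePC-La replicate 1 (limma unadjusted p = 0.0518). Csf1 was higher by 0.71 (standard error 0.23, limma unadjusted p = 0.0209, adjusted p = 0.156), a ratio of 1.64. Il6st was at -0.42 (standard error 0.13, limma unadjusted p = 0.0139, adjusted p = 0.143), a ratio of 0.732. Csf1 and Il6st kept their direction with each sample left out, from 0.54 to 0.88 and from -0.49 to -0.36, but Csf1 lost an unadjusted p under 0.05 without PC-La replicate 1 or either SePC-La sample, and Il6st without SePC-La replicate 1 or either PC-La sample.

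The other 6 tested genes were not separable between the photosensitizers. Socs3 was at 0.42 (95% interval -0.28 to 1.13), with non-overlapping groups. Il11 was at 0.36 (-0.36 to 1.09), Il6 at 0.10 (-0.60 to 0.80) and Stat3 at -0.02 (-0.55 to 0.50). Wide intervals for Lif, at 0.15 (-1.58 to 1.88), and Csf3, at 0.78 (-1.62 to 3.18), leave large differences possible in either direction, and Csf3 turned to -0.15 without SePC-La replicate 2. In counts, 1 of the 9 met the criterion as higher and 0 as lower, against 1.18% and 1.8% of all tested genes; voom also gave 1. At an unadjusted p under 0.05, 2 were higher and 1 lower, against 9.91% and 14.4%. Groups did not overlap for 3 higher and 1 lower, against 26.0% and 39.5%. The share of the 9 genes with non-overlapping groups was thus below that of all tested genes in this comparison.

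PC-La against Laser asks what phycocyanin with light did beyond light alone. None of the 9 tested genes met the criterion on the log2(FPKM + 1) scale, and 1, Il11, had an unadjusted p under 0.05. Il11 met the criterion at a pseudocount of 0.1 (1.3) and with voom (1.43), and lost the p under 0.05 without the filter and with only the 4 samples compared. Among all tested genes 0.866% met it as higher and 0.424% as lower, while 3.38% were higher and 2.4% lower at that p. Il11 was higher by 0.77 on the log2 scale (standard error 0.30, limma unadjusted p = 0.0398, adjusted p = 0.753), with a mean of 2.32 ± 0.715 FPKM with PC-La (SD, n = 2), 2.37 times that of Laser. The value was 0.41 when Laser replicate 2 was left out, 1.14 when Laser replicate 1 was, and 0.55 when PC-La replicate 2 was. Lif was at 1.11 and Csf3 at 1.40, and these became 0.03 and 0.30 without Laser replicate 2, and 2.19 and 2.5 without Laser replicate 1, so that their size rested on which Laser sample was kept.

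Osm was at -0.13 and Csf1 at -0.05, and both turned positive without Laser replicate 1, to 0.46 and 0.27, and were -0.72 and -0.36 without Laser replicate 2. Socs3 was at 0.30 and turned to -0.15 without Laser replicate 2, against 0.74 without Laser replicate 1. Il6st was at -0.17 (standard error 0.13, limma adjusted p = 0.763), below both Laser samples, and was -0.26 when Laser replicate 2 was left out and -0.08 when Laser replicate 1 was. Il6 was at 0.49 and Stat3 at 0.33, and these were 0.19 and -0.004 without Laser replicate 2, and 0.79 and 0.67 without Laser replicate 1. In counts, PC-La was above both Laser samples for 4 of the 9 and below for 1, where 20.4% and 21.6% of all tested genes were so.

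**Figure D3:**
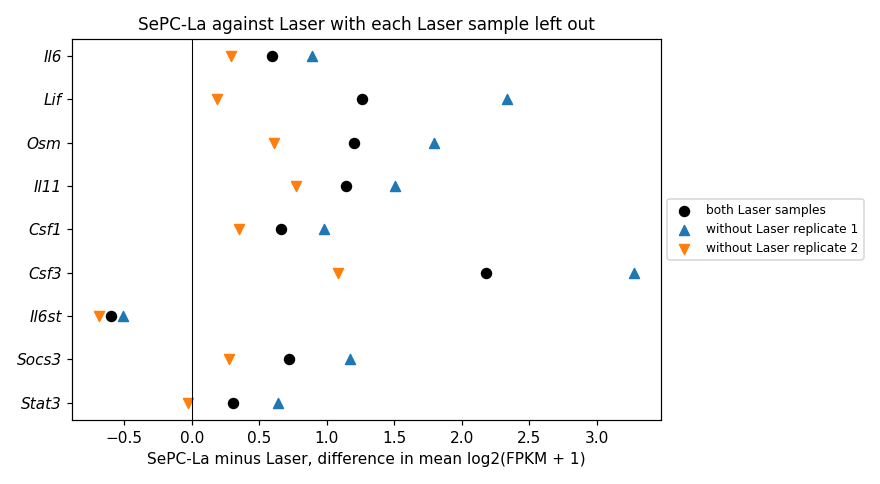
Difference between SePC-La and Laser in mean log2(FPKM + 1) (horizontal axis) for the 9 tested genes with both Laser samples (circles), without Laser replicate 1 (upward triangles) and without Laser replicate 2 (downward triangles). Lif ran from 0.18 to 2.34 and Csf3 from 1.09 to 3.28, while Il6st stayed between -0.69 and -0.51 and Stat3 crossed 0.

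No receptor of these cytokines met the criterion in the main fit of all 6 samples on log2(FPKM + 1). With the replicate number added as a block, Csf3r met it in SePC-La against Laser (limma unadjusted p = 0.0385). Of 12 listed receptors, 8 were tested, Il6st being counted apart. At an unadjusted p under 0.05 there was 1 higher in PC-La than in Laser (Csf2ra), 0 in SePC-La against Laser, and 2 lower in SePC-La than in PC-La (Il11ra1 and Csf1r). Of all tested genes, 3.38%, 4.9% and 9.91% were higher and 2.4%, 7.24% and 14.4% lower at that p in these comparisons. The medians were 0.27, 0.29 and -0.15 in these comparisons. Csf3r, the G-CSF receptor of neutrophils, followed the order seen for Osm, with 12.1 and 2.84 FPKM with Laser, 7.68 and 7.24 with PC-La, and 18.2 and 14.3 with SePC-La. SePC-La was above the other 4 samples, with log2 fold changes of 1.27 against Laser (limma unadjusted p = 0.0686) and 1.02 against PC-La (limma unadjusted p = 0.125). The second met the criterion when only the 4 samples compared were fitted (limma unadjusted p = 0.000675), since the spread of the Laser samples then played no part, and the first was 2.16 without Laser replicate 1 but 0.39 without Laser replicate 2.

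Csf1r, the Csf1 receptor of macrophages, was the most abundant receptor of the list. Unlike its ligand, it was lower in SePC-La than in PC-La, with 29.1 and 33.2 FPKM with PC-La, 12.9 and 24.4 with SePC-La, and 25.5 and 17.5 with Laser, a log2 fold change of -0.78 (limma unadjusted p = 0.0499, adjusted p = 0.206). That value was -0.34 without SePC-La replicate 1 and -1.21, at the criterion, without SePC-La replicate 2, and its p was over 0.05 at a pseudocount of 0.1, with other filters, with median-ratio scaling and with voom. Osmr, the oncostatin M receptor, stood at 7.49 and 1.73 FPKM with Laser, 6.46 and 7.10 with PC-La, and 4.34 and 6.09 with SePC-La, so that SePC-La lay below PC-La where its ligand lay above. Il11ra1 had a log2 fold change of -0.65 between SePC-La and PC-La (limma unadjusted p = 0.0442), with 4.34 and 4.53 FPKM with PC-La and 1.89 and 3.15 with SePC-La. It was -0.39 without SePC-La replicate 1 and -0.91 without SePC-La replicate 2, and its p was over 0.05 without the filter and with median-ratio scaling. Il6ra differed little, between 6.06 and 7.87 FPKM in all samples. Lifr was below the filter, at 0.289 to 1.15 FPKM.

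The GM-CSF receptor chain Csf2ra had 15.5 and 11.4 FPKM with Laser, 17.7 and 21.6 with PC-La, and 16.9 and 16.3 with SePC-La, with a log2 fold change of 0.52 in PC-La against Laser (limma unadjusted p = 0.0235, adjusted p = 0.753). Leaving out Laser replicate 2 made it 0.32, and leaving out Laser replicate 1 made it 0.72. Csf2rb and Csf2rb2, the shared chain of the GM-CSF receptor and its near-identical copy, are uncertain, since counting could split their reads. They ranged from 4.23 to 9.19 and from 2.93 to 6.03 FPKM.

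Of 10 other ligands of these families, 5 were tested. Ctf1, which encodes cardiotrophin 1 of the IL-6 family, met the criterion as lower in SePC-La than in PC-La, with 7.02 and 5.71 FPKM with PC-La, 2.09 and 3.30 with SePC-La, and 4.50 and 1.96 with Laser. Its log2 fold change was -1.01 (standard error 0.32, limma adjusted p = 0.155), and it missed the criterion at -0.93 with median-ratio scaling, at -0.88 without PC-La replicate 1 and at -0.77 without SePC-La replicate 1. Il34, a second ligand of Csf1r, was the most abundant of this list, between 8.26 and 11.7 FPKM, with differences of at most 0.16 on the log2 scale between groups. None of the 5 met the criterion against Laser on the log2(FPKM + 1) scale. At an unadjusted p under 0.05 there was 1 in PC-La against Laser, Ctf1, higher by 0.86, and 0 in SePC-La against Laser. Of all tested genes, 3.38% and 4.9% were higher and 2.4% and 7.24% lower at that p in these comparisons. Ctf1 met the criterion in PC-La against Laser at a pseudocount of 0.1 (1.06) and with voom (1.1). Leaving out Laser replicate 2 gave 0.42 and leaving out Laser replicate 1 gave 1.31.

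Of 10 JAK kinases and other STAT factors, 9 were tested, with medians of 0.15, -0.06 and -0.24 on the log2 scale in PC-La against Laser, SePC-La against Laser and SePC-La against PC-La. Jak1, the kinase bound to Il6st, was the most abundant, between 34.9 and 44.8 FPKM, and its largest difference between groups was -0.22. Of 15 other negative regulators of the pathway, 13 were tested and 0 met the criterion in any comparison on the log2(FPKM + 1) scale or with voom. At an unadjusted p under 0.05 there was 1 higher in PC-La against Laser, 1 higher and 1 lower in SePC-La against Laser, and 3 lower in SePC-La against PC-La. Of all tested genes, 3.38%, 4.9% and 9.91% were higher and 2.4%, 7.24% and 14.4% lower at that p in these comparisons. Ptpn1, a phosphatase that removes phosphate from JAK kinases, had the highest mean of them and ranged from 20.5 to 24.9 FPKM.

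A list of 20 genes known as STAT3 targets in various cells, many of which answer to other factors as well, was tested in full. In SePC-La against Laser 7 of the 20 were higher at an unadjusted p under 0.05 and 0 lower, with 1 meeting the criterion, and a list median of 0.35 on the log2 scale. Of all tested genes 4.9% were higher and 7.24% lower at that p, and 0.544% met the criterion as higher. In SePC-La against PC-La 5 were higher and 0 lower, with 3 meeting the criterion and a median of 0.42, where 9.91% of all tested genes were higher, 14.4% lower and 1.18% higher at the criterion. In PC-La against Laser 0 were higher and 2 lower, against 3.38% and 2.4% of all tested genes, none met the criterion on the log2(FPKM + 1) scale or with voom, and the median was near 0, at -0.004. Cebpd, a transcription factor of the acute-phase response, met the criterion against both, at 1.18 (standard error 0.38, limma adjusted p = 0.382) against Laser and 1.18 (limma adjusted p = 0.159) against PC-La, with 15.1 and 6.34 FPKM with Laser, 10.4 and 9.40 with PC-La, and 20.0 and 27.9 with SePC-La. Against Laser it was 1.75 without Laser replicate 1, and it missed the criterion without Laser replicate 2 (0.61) and without SePC-La replicate 2 (0.95), and against PC-La without PC-La replicate 1 (1.25), PC-La replicate 2 (1.11) or SePC-La replicate 2 (0.95).

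Myc, a growth-promoting transcription factor, met the criterion against PC-La at 1.51 (standard error 0.24, limma adjusted p = 0.12), with 185 and 256 FPKM with Laser, 122 and 133 with PC-La, and 448 and 295 with SePC-La. Fosl1, an AP-1 subunit, met it at 1.17 (standard error 0.16, limma adjusted p = 0.0868), with 18.6 and 16.3 FPKM with Laser, 10.8 and 11.6 with PC-La, and 29.9 and 23.4 with SePC-La. For both, the 3 groups did not overlap and PC-La was the lowest.

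**Figure D4:**
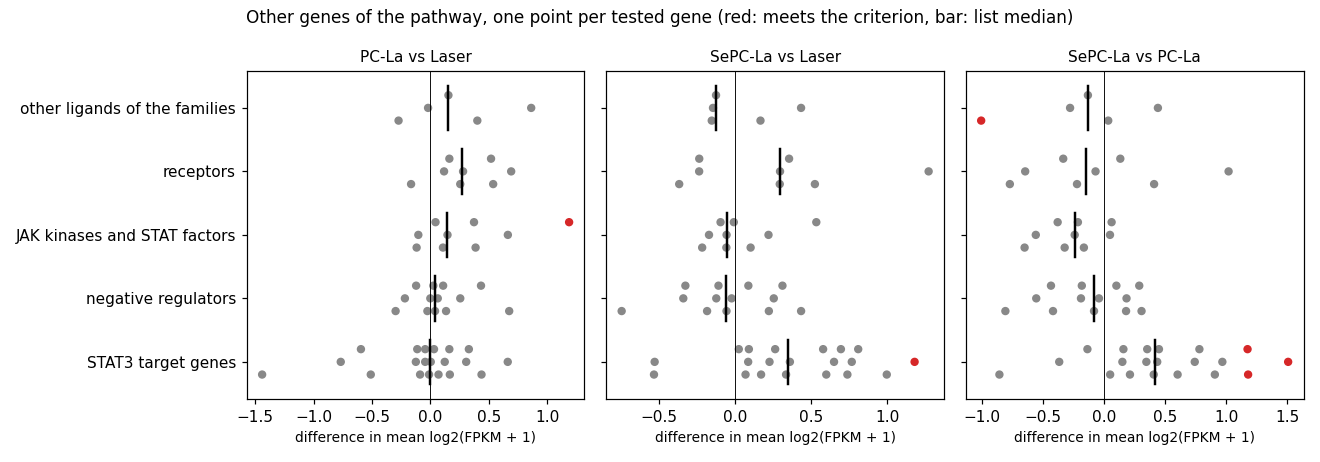
Difference in mean log2(FPKM + 1) (horizontal axes) of each tested gene of 5 pathway lists in the 3 comparisons; red points meet the criterion and black bars are list medians. The STAT3 target genes had medians of 0.35 and 0.42 in the comparisons with SePC-La and about 0 in PC-La against Laser.

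Markers of other cells were counted in the same way, and their association with the 10 genes was not tested. Of all tested genes, 0.866% met the criterion as higher and 0.424% as lower in PC-La against Laser. These shares were 0.544% and 0.138% in SePC-La against Laser, and 1.18% and 1.8% in SePC-La against PC-La. In a piece of tumor, fewer cells of a type and less RNA per cell cannot be told apart. Of 12 neutrophil markers, 8 were tested, and 4 met the criterion as higher in SePC-La than in Laser and 4 as higher than in PC-La, with 0 lower in each, while 1 was lower in PC-La than in Laser. Their summed FPKM was 175 and 47.5 with Laser, 165 and 99.1 with PC-La, and 358 and 491 with SePC-La, the order of Osm and Csf3r, and Csf3r is itself on that list. The defining marker Ly6g was at 0 in Laser replicate 2 and at most 0.912 FPKM elsewhere. Macrophage markers, 12 tested, summed to 1419 and 2193 FPKM with Laser, 1653 and 1796 with PC-La, and 1080 and 1578 with SePC-La. Of them, 2 met the criterion, both lower in SePC-La than in PC-La. In that comparison 8 of the 12 were lower and 4 higher. At an unadjusted p under 0.05, 5 were lower and 1, Cd14, was higher, by 0.92 (limma unadjusted p = 0.000174, adjusted p = 0.0868). Of all tested genes, 14.4% were lower and 9.91% higher at that p. Lyz2 was the largest part of each macrophage sum, at 599 to 1409 FPKM.

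Fibroblast markers, 9 tested, differed widely among the samples. They summed to 1251 and 291 FPKM with Laser, 1727 and 1579 with PC-La, and 125 and 642 with SePC-La, with 1 meeting the criterion, lower in SePC-La than in PC-La. Col3a1 was the largest part of each of these sums, at 72.8 to 895 FPKM. Between SePC-La and PC-La 7 of the 9 were lower and 2 higher, Col1a2 by 0.59 and Pdgfrb by 0.0088 on the log2 scale. Il6st and Il11ra1 were lower in SePC-La than in PC-La without overlap, as were 39.5% of all tested genes, whereas Il11 and Lif were not. In PC-La against Laser, Il6st was lower and Il11ra1 overlapped, where the fibroblast sums were higher. Skeletal muscle markers summed to 21.6 and 147 FPKM with Laser and at most 6.12 in the other 4 samples, and 6 of 7 tested were lower at the criterion in both comparisons with Laser. Erythroid markers summed to 127 and 13.6 FPKM with Laser, 263 and 362 with PC-La, and 613 and 933 with SePC-La, and all 5 tested were higher in SePC-La than in Laser at the criterion, 3 with PC-La than in Laser and 1 with SePC-La than in PC-La. The part of these cells in the differences of the 10 genes was not tested.

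Of the remaining lists, none of the tested endothelial (6), T and NK cell (4), adipocyte (3) or carcinoma (6) genes met the criterion in any comparison on the log2(FPKM + 1) scale; 1 endothelial gene met it in SePC-La against Laser at a pseudocount of 0.1 and with voom. At an unadjusted p under 0.05, 2 endothelial genes were higher in SePC-La than in Laser, where 4.9% of all tested genes were, and the other lists had 0. The T and NK cell list summed to 6.56 to 20.9 FPKM and the endothelial list to 24.9 to 42.6. The adipocyte list summed to 1.63 to 53.3 FPKM, with the highest sum in SePC-La replicate 2.

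**Figure D5:**
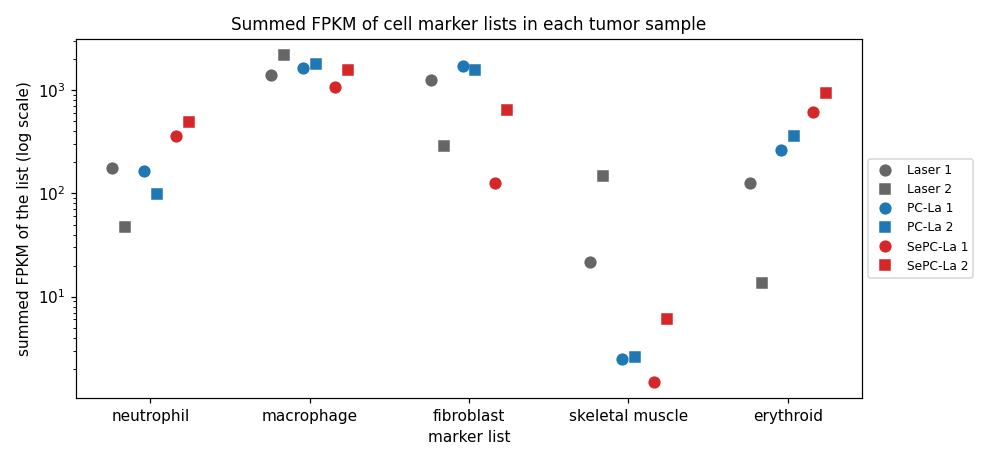
Summed FPKM of 5 marker lists (vertical axis, log scale) in each of the 6 samples; circles are replicate 1 and squares replicate 2. Neutrophil sums were highest in SePC-La, at 358 and 491, muscle sums were highest in Laser replicate 2, at 147, and fibroblast sums were lowest in SePC-La replicate 1, at 125.

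For the 7 genes that varied by at least 1 on the log2(FPKM + 1) scale over the 6 samples, the 2 tested genes with the most similar profile were found by the root-mean-square difference of log2 values, each centred on its own mean. Osm was nearest to Gadd45b, a stress-inducible gene, at a difference of 0.05, with 6.81 and 2.67 FPKM with Laser, 3.79 and 3.70 with PC-La, and 11.4 and 10.5 with SePC-La, and then to Il1f9 (0.09). Socs3 was nearest to Atp5k (0.08) and Junb (0.09), an AP-1 subunit on the STAT3 target list, with 112 and 69.4 FPKM with Laser, 110 and 108 with PC-La, and 135 and 142 with SePC-La. Il6 was nearest to Prdm1 (0.07) and Pde4b (0.10), and Csf1 to Alg3 (0.08) and Trem3 (0.09). Lif was nearest to Bcl3 (0.24) and Grem1 (0.28), which were low in Laser replicate 2 as well, and Il11 to Plac8 (0.16) and Acta2 (0.16). Csf3 had no close match, with Hba-a2 at 0.46, whose reads may be shared with its copy Hba-a1, and Mmp9 at 0.50.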

How the data were processed

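RNA sequencing of 6 tumor samples in 3 groups of 2, set by the sample titles, was analysed. The values, deposited by the authors as FPKM, fill 1 table with 1 column per sample, and each column was used. The submitters' processing notes name HISAT2 2.0.5, HTSeq 0.9.1, DESeq 1.30.0 and the genome build mm9. No unit is named in the header, and FPKM was read off the numbers: with merged exon lengths of GENCODE M21 (GRCm38), values of 97.9% of 16785 expressed genes became whole reads (within 0.05) in each sample. Coordinates are from that annotation and were not converted to mm9.

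On log2(FPKM + 1), 1 mean per group was fitted by limma 3.58.1 (R 4.3.3; trend and robust estimation) to genes whose mean reached 1 FPKM. Benjamini-Hochberg adjustment ran over all 10853 genes. With 2 samples against 2, an exact permutation test of a single gene cannot reach 0.05, so none was run.

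The 10 genes and the lists were chosen with earlier results of these data known. Of the lists, every gene that met the criterion was named; where fewer than 3 did, also the gene with the highest mean, and the receptors of the 10 genes' ligands. One result of the pathway lists that this rule names is not reported here. Marker lists are given by counts. Alternatives were a pseudocount of 0.1, no filter, a filter at 5 FPKM, scaling by median ratios, the 4 samples compared, the replicate number as a block, voom, and each sample left out. The fits were tested on simulated data. Tables were made with Python 3.11.15.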

Additional observations from a re-analysis of the deposited data

How the results depend on the processing

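The number of genes at the criterion, 140, 74 and 323 for PC-La against Laser, SePC-La against Laser and SePC-La against PC-La, depended on how low genes were handled: 68, 46 and 186 with a minimum mean of 5 FPKM (fewer genes tested), 129 and 488 for the comparisons with SePC-La at a pseudocount of 0.1, and 221 and 134 for the comparisons with Laser by voom. With each sample left out they ran from 71 to 664, from 60 to 253 and from 169 to 584. The number of the 10 genes at the criterion, 0, 2 and 1, became 1 in PC-La against Laser at a pseudocount of 0.1 and by voom, and 1 in SePC-La against Laser with a minimum mean of 5 FPKM, where Il11 was not tested. With each sample left out these counts ran from 0 to 3, from 0 to 5 and from 0 to 1. Of 345 single values under the alternatives, 316 kept their direction and side of the criterion and 13 changed direction. The filters, the 4 samples compared, the replicate block and a sample left out of the third group cannot change a fold change. They can change only its p, so this count and that for the named genes below overstate how stable the directions are. Apart from samples left out, 1 direction changed, that of Stat3 in SePC-La against PC-La, to 0.078 with median-ratio scaling. With samples left out, the ranges that crossed 0 were -0.72 to 0.46 for Osm, -0.36 to 0.27 for Csf1, -0.15 to 0.74 for Socs3 and -0.0039 to 0.67 for Stat3 in PC-La against Laser, -0.028 to 0.64 for Stat3 in SePC-La against Laser, and -0.13 to 0.33 for Il6, -0.033 to 0.33 for Lif, -0.15 to 1.71 for Csf3 and -0.073 to 0.024 for Stat3 in SePC-La against PC-La. For the 16 tested genes that the rule for named genes takes from the pathway lists, 569 of 615 values kept both and 23 changed direction, 3 of them with median-ratio scaling, Cebpd in PC-La against Laser (-0.019), Ptpn1 in SePC-La against Laser (0.020) and Il6ra in SePC-La against PC-La (0.020). Ranges that crossed 0 with samples left out were, in PC-La against Laser, -0.25 to 0.21 for Il34, -0.13 to 1.51 for Osmr, -0.025 to 0.58 for Il11ra1, -0.28 to 0.51 for Csf2rb, -0.25 to 0.57 for Csf2rb2, -0.63 to 1.14 for Csf3r and -0.56 to 0.57 for Cebpd, in SePC-La against Laser, -0.59 to 0.30 for Ctf1, -0.67 to 0.20 for Csf1r, -0.47 to 1.17 for Osmr and -0.12 to 0.70 for Csf2rb2, and in SePC-La against PC-La, -0.36 to 0.094 for Il34 and -0.043 to 0.30 for Csf2rb2. Median-ratio scaling changed the split in SePC-La against PC-La from 128 higher and 195 lower to 166 and 149. A group left with 1 sample was assumed to vary like the others. The replicate number did not pair the samples: deviations of same-numbered samples correlated at 0.09, -0.43 and -0.18 across genes. As a replicate block it gave 133, 81 and 285 genes at the criterion, and 0, 2 and 1 of the 10 genes. Among the genes named, the block changed 1 call by the criterion, bringing Csf3r in SePC-La against Laser to it (1.27, limma unadjusted p = 0.0385), and took the p of Il11 and Ctf1 in PC-La against Laser, Socs3 in SePC-La against Laser, and Csf1r and Il11ra1 in SePC-La against PC-La over 0.05. Counting error limits Il6 and Csf2 most.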
